A study of Mus musculus with 27 samples.

Results

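Hepatic stellate cells (HSCs) are the mesenchymal cells of the liver that store vitamin A, and 9 genes of retinoid storage and metabolism were followed here through liver injury. They were picked by name for their part in retinoid handling, with earlier results of these data known. They are Lrat, Rbp4, Stra6, Dhrs3, Rdh10, Aldh1a1, Aldh1a2, Crabp1 and Crabp2, out of 53379 genes in the count table, and 6 of them passed the filter on low counts that left 18758 genes for testing. All 27 libraries are bulk RNA-seq of HSCs from male Balb/c mice, and each is a separate experiment. Sorting used the ultraviolet fluorescence that retinoid gives these cells, so every library holds cells that still carried retinoid, and cells without it fall outside the gate. The liver was injured with CCl4 (carbon tetrachloride, which is toxic to hepatocytes) in mineral oil, injected into the peritoneum at 0.5 µL per g of body weight. Healthy mice of 10 to 12 weeks were not treated, also not with oil, and gave 4 libraries. Acute groups received 1 injection at 10 to 12 weeks and were collected at 24 h with 3 libraries, and at 72 h and 7 d with 4 libraries each. Chronic groups started at 8 to 10 weeks, received 8 injections over 4 weeks and were collected 24 h, 72 h or 14 d after the last one, with 4 libraries each. CCl4, oil and injection therefore cannot be told apart here, and the chronic mice were older at collection than the acute ones.

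Vitamin A reaches the liver from the diet, and most of it is kept as retinyl ester in the lipid droplets of HSCs. LRAT makes those esters from retinol. Retinol leaves the liver bound to the carrier RBP4, which hepatocytes secrete, and STRA6 is a cell surface receptor for that carrier. Inside the cell, retinol is oxidised to retinal by RDH10, reduced back by DHRS3, and retinal is oxidised irreversibly to retinoic acid by the ALDH1A enzymes. Retinoic acid is carried by CRABP1 and CRABP2 and acts on nuclear receptors. Loss of the retinoid droplets is a classical feature of HSC activation.

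Total counts lay between 6.31 M and 13.1 M per library, and 8 libraries lay under 9 M. These comprise the whole chronic 14 d group and the first 2 replicates of the chronic 24 h and chronic 72 h groups. Levels are counts per 1000000 of the library's total (CPM), and fold changes are on the log2 scale from 1 edgeR quasi-likelihood fit of all libraries, scaled by trimmed means. A gene was called changed at a Benjamini-Hochberg adjusted p below 0.05 over all genes tested together with more than a 2-fold change. All 14 HSC markers examined, among them Des and Reln, had counts in every group. Their summed level was 20565 to 23877 CPM in healthy and 12535 to 17385 CPM in acute 24 h. It was 7129 to 11846 CPM in the acute 72 h, acute 7 d, chronic 24 h and chronic 72 h libraries. In chronic 14 d it was 11334 to 16673 CPM. Ecm1 alone had a mean of 8707 CPM in healthy, and single markers went both ways. In chronic 24 h Pdgfrb was called higher than healthy (mean 2050 against 997 CPM). There, 9 of the 14 were called lower, where 8.11% of all genes tested were. The sum of 6 markers of activated HSCs, among them Acta2 and Col1a1, was 2728 to 2978 CPM in healthy and 24128 to 41337 CPM in acute 7 d. Hepatocyte markers were present in every library too, with a sum of 679 to 942 CPM in acute 24 h and 4517 to 17474 CPM in chronic 14 d. In bulk RNA, fewer cells of a type and less RNA per cell cannot be told apart.

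In short, Lrat was not called in any of the 21 pairs of groups. Of the enzymes that interconvert retinol and retinal, Dhrs3 was called against healthy in several groups and Rdh10 in acute 24 h alone. At 24 h after the first injection Dhrs3 and Rbp4 were lower and Rdh10 and Aldh1a1 higher than in healthy cells. Aldh1a2 was called higher there too, at 3, 3 and 16 counts, a call lost without replicate 1. With 0 counts in the healthy libraries, Aldh1a2 could only be called higher. In acute 7 d, chronic 24 h and chronic 72 h Dhrs3 was higher than in healthy cells, so that its direction 24 h after an injection differed between the first and the repeated injury. Stra6, Crabp1 and Crabp2 had almost no counts.

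Against healthy, 3 members were higher and 2 lower in acute 24 h, where 9.41% of all genes tested were higher and 12.5% lower. In acute 72 h 1 was higher, where 8.23% of all genes were higher and 4.33% lower. In acute 7 d 2 were higher (9.23% higher and 5.64% lower over all genes), in chronic 24 h 2 (11.2% and 8.11%), in chronic 72 h 2 (7.88% and 4.2%) and in chronic 14 d 1 (4.55% and 1.17%). In these 5 groups no member was called lower. Aldh1a2 is 1 of the higher members in every group and passed the filter only through injured libraries. With 6 members tested, such counts are too small to set apart from those percentages. The 6 comparisons share the healthy libraries.

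**Figure D1:**
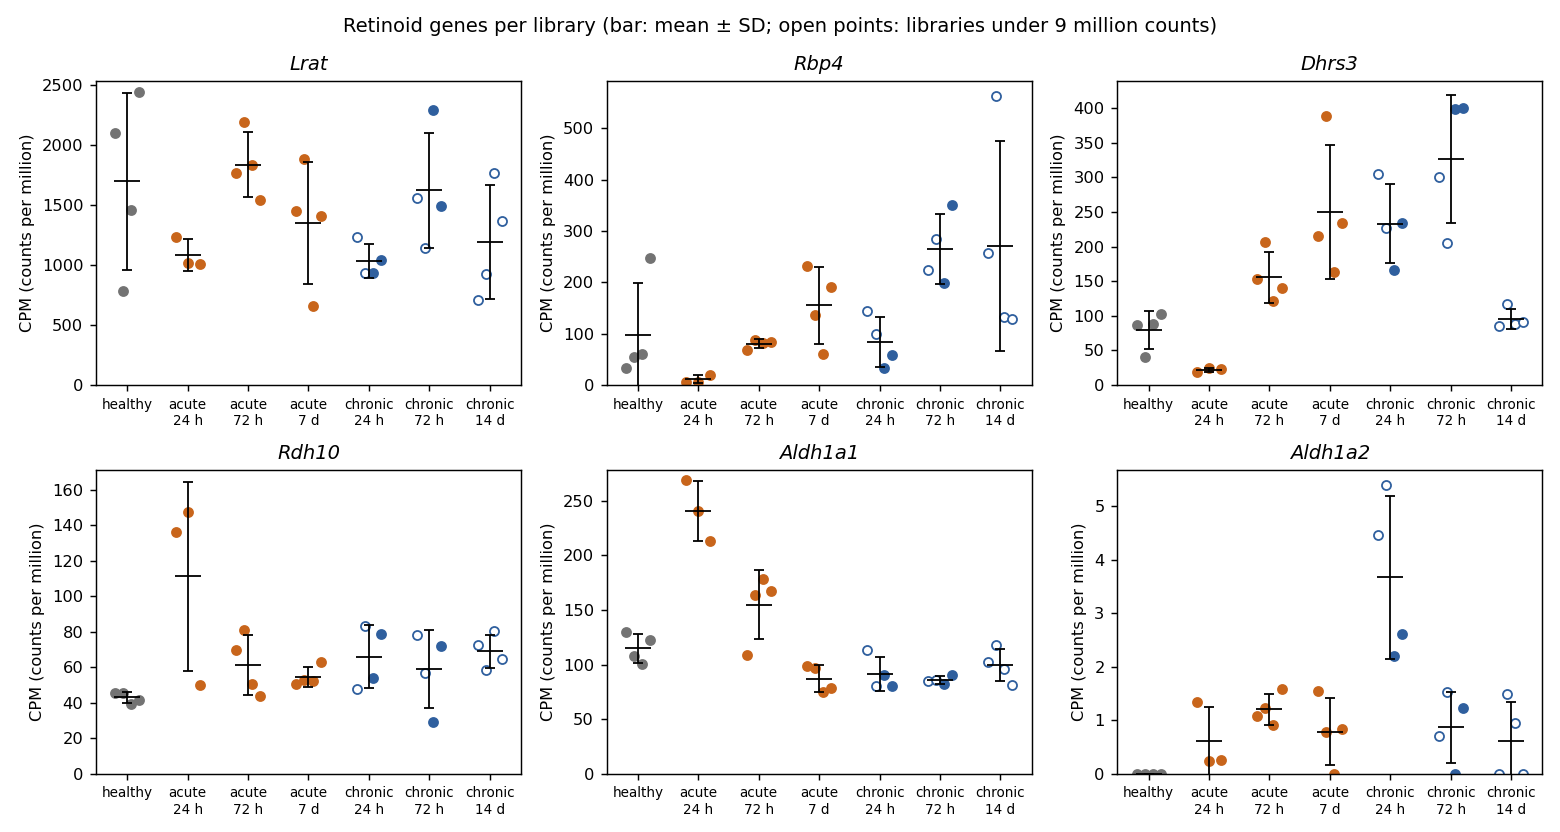
CPM of the 6 members that passed the filter on low counts, per library in the 7 groups (healthy grey, acute orange, chronic blue), each panel with its own axis from 0. Black bars give mean ± SD, stopped at 0 where the SD is larger than the mean, and open points are the 8 libraries under 9 M counts. Dhrs3 is lowest in the 3 acute 24 h libraries (18.7 to 24.1 CPM), where Aldh1a1 is highest (214 to 269 CPM).

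The promoters of 4 members whose results are described next are shown to place the genes and to mark letters of the retinoic acid receptor's binding site. They are the 250 bases before a RefSeq transcription start on the GRCm38.p6 mouse genome, written 5′ to 3′ on the gene's strand. The core motif AGGTCA, the variant AGTTCA, the variant GGGTCA and the variant GGTTCA were searched on both strands, and a match is in capitals. Lrat has 1 RefSeq window, Aldh1a1 and Rbp4 have 2 each and Dhrs3 has 3. Of several windows the one with a match is shown, otherwise the one farthest upstream. The stretches of Aldh1a1 and Rbp4 were thus picked because they hold a match. Lrat lies at chr3:82903975-82904224 (minus strand), Dhrs3 at chr4:144892577-144892826 (plus), Aldh1a1 at chr19:20601718-20601967 (plus) and Rbp4 at chr19:38125322-38125571 (minus).
Lrat: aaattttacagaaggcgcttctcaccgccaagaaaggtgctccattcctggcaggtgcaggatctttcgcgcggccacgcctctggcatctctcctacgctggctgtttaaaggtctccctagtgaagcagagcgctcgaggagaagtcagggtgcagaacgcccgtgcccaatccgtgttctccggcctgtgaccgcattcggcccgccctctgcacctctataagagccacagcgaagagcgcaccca
Dhrs3: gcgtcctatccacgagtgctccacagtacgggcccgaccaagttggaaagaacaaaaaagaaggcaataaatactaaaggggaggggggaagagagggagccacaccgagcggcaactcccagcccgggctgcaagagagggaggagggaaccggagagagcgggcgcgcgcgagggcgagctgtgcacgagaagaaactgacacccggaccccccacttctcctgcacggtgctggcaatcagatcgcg
Aldh1a1: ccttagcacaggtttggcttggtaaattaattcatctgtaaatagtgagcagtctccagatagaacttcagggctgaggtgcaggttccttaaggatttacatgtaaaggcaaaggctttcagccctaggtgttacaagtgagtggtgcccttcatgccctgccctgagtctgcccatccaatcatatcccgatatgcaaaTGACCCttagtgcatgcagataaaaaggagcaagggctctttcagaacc
Rbp4: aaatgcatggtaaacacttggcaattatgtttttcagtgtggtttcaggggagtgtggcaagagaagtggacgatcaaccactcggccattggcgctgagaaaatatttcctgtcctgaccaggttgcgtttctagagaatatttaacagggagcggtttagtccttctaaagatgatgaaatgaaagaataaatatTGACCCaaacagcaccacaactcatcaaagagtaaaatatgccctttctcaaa
The Lrat and Dhrs3 stretches were rich in G and C (59.2% and 61.6%) with 18 and 19 CG pairs, whereas those of Aldh1a1 and Rbp4 had 46.4% and 40.8% with 1 and 5 pairs. In the stretches so picked, TGACCC, the reverse complement of GGGTCA, occurred once before Aldh1a1 and once before Rbp4. In windows that also take in 50 bases after the start, 3 of the 7 members with a RefSeq window held such a motif (Aldh1a1, Rbp4 and Stra6), as did 46.9% of 27025 genes. Neither Lrat nor Dhrs3 did in any of their windows. Motifs repeated in the same direction with a gap of 5, 2 or 1 bases were in 0 of the 7 members and in 0.115%, 0.311% and 0.263% of genes. Rdh10 and Crabp2 were not analysed for this.

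The storage enzyme Lrat was the most abundant member. Lrat (ENSMUSG00000028003, chr3:82892579-82903973, minus strand) had 781, 1458, 2104 and 2445 CPM in the healthy libraries. After 1 injection it had 1006, 1014 and 1236 CPM at 24 h, 1540, 1768, 1837 and 2195 CPM at 72 h, and 659, 1411, 1452 and 1888 CPM at 7 d. After repeated injections it had 935, 936, 1042 and 1233 CPM at 24 h, 1144, 1494, 1556 and 2294 CPM at 72 h, and 706, 928, 1370 and 1766 CPM at 14 d. Both 24 h groups were tight and low, but they lay within the range of the healthy libraries, which spanned more than any of the injured groups. Per kb of merged exons, the mean of Lrat was the highest among the members in each of the 7 groups, with a healthy mean of 317 CPM per kb of merged exons, against 73.3 for Rbp4, 27.1 for Dhrs3, 23.3 for Aldh1a1 and 10.3 for Rdh10. In chronic 14 d Lrat (223 CPM per kb) was close to Rbp4 (201), which was the higher of the pair in replicates 1 and 2. The order depends on the length used. Per kb of the longest transcript, Rbp4 had 233 CPM and Lrat 223 in chronic 14 d, and in healthy Aldh1a1 had 48.8, above Dhrs3 with 34.0, and Rdh10 12.0.

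The log2 fold change of Lrat against healthy was -0.72 ± 0.31 (SE) in chronic 24 h (adjusted p = 0.0826, 95% interval -1.33 to -0.11), the lowest adjusted p of the 21 pairs of groups. It was -0.64 ± 0.34 in acute 24 h (adjusted p = 0.155), -0.45 ± 0.31 in acute 7 d, -0.18 ± 0.31 in chronic 72 h and -0.70 ± 0.31 in chronic 14 d (adjusted p = 0.175). In acute 72 h it was 0.00 ± 0.31, with an interval of -0.61 to 0.61. Without healthy replicate 2, the lowest healthy library, the value in chronic 24 h was -0.96 with an adjusted p of 0.0176, still less than 2-fold, and without healthy replicate 4 it was -0.48. The absence of a call therefore does not show that Lrat kept its healthy level. Lrat overlaps the antisense gene Rbm46os, which had 239 counts in all libraries together against 413278 for Lrat. Of the other genes of ester synthesis and hydrolysis on the list, 14 were tested, and 1 was called higher and 8 lower in acute 24 h. These are 7.14% and 57.1%, where 9.41% and 12.5% of all genes tested were. In acute 24 h 13 of 16 hepatocyte markers were called lower too, and the part of hepatocyte RNA in these calls was not tested. The acyltransferase genes differed among themselves. Dgat1 was called in no comparison with healthy, at log2 fold changes between -0.03 and 0.23. Dgat2 fell in acute 24 h by a log2 fold change of -2.46 ± 0.46 (adjusted p = 0.00024) and rose in chronic 14 d by 1.60 ± 0.39 (adjusted p = 0.0118), a call lost without healthy replicate 2 or chronic 14 d replicate 2 (adjusted p = 0.0512 and 0.0533). Its group mean was lowest in acute 24 h (6.44 CPM) and highest in chronic 14 d (121 CPM). The sum of hepatocyte markers was 679 to 942 and 4517 to 17474 CPM there, and their part in the Dgat2 result was not tested. Mboat1, at a mean of 0.895 CPM in healthy, rose in acute 72 h by 2.50 ± 0.55 (adjusted p = 0.00204), and its lower call in acute 24 h (-1.77, adjusted p = 0.0487) was lost without any of 5 libraries.

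Of the 2 members that interconvert retinol and retinal, Dhrs3 had the larger changes. Dhrs3, the retinal reductase that returns retinal to retinol (ENSMUSG00000066026, chr4:144892827-144928209, plus strand), had 39.9, 87.0, 88.5 and 102 CPM in the healthy libraries. It had 18.7, 22.6 and 24.1 CPM in acute 24 h, 122, 141, 153 and 207 CPM in acute 72 h, and 163, 216, 234 and 389 CPM in acute 7 d. All 3 acute 24 h libraries lay below the lowest healthy one, and all acute 72 h and 7 d libraries above the highest. After repeated injections Dhrs3 had 166, 227, 234 and 305 CPM at 24 h, 206, 301, 399 and 400 CPM at 72 h, and 85.2, 88.5, 90.6 and 118 CPM at 14 d. The chronic 24 h and 72 h libraries lay above every healthy library, and the chronic 14 d libraries overlapped them.

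Against healthy, Dhrs3 fell in acute 24 h, with a log2 fold change of -1.86 ± 0.32 (SE), or 3.63-fold, and an adjusted p of 0.000101. It rose in acute 7 d by 1.54 ± 0.29 (adjusted p = 0.000379), in chronic 24 h by 1.54 ± 0.29 (adjusted p = 0.000227) and in chronic 72 h by 1.93 ± 0.29 (adjusted p = 4.4e-05). In acute 72 h the value was 0.86 ± 0.28 with an adjusted p of 0.0309, short of 2-fold. It was 1.02 without healthy replicate 4. In chronic 14 d it was 0.09 ± 0.28, with an interval of -0.46 to 0.64. Within the libraries over 9 M counts alone, Dhrs3 was higher by 1.34 in chronic 24 h and 2.28 in chronic 72 h (adjusted p = 0.00729 and 0.000261).

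The groups of equal time after an injection were then compared, to ask whether the first and the repeated injury differ. At 24 h, 2 members were higher and 1 lower in chronic than in acute cells, where 10.9% and 3.05% of all genes were. Dhrs3 was higher by 3.40 ± 0.35 on the log2 scale (10.6-fold, adjusted p = 3.5e-07), with no overlap between the groups. At 72 h Dhrs3 was the 1 member called higher and none was lower (5.11% and 4.01% of all genes), with a change of 1.07 ± 0.28 (adjusted p = 0.0123). The groups overlapped at 206 and 207 CPM, and without acute 72 h replicate 3, chronic 72 h replicate 3 or chronic 72 h replicate 4 the change was 0.99, 1.00 or 0.93, below 2-fold. The step from 24 h to 72 h was smaller in chronic than in acute cells by 2.33 ± 0.42 on the log2 scale, an interaction with an adjusted p of 0.000897, and 6.46% of all genes were called in that direction and 2.28% in the other. Over time, Dhrs3 rose from acute 24 h to acute 7 d by 3.40 ± 0.35 (adjusted p = 1.3e-07), 1 of 2 members called higher where 17.8% of genes were. It was the 1 member called lower from chronic 24 h to chronic 14 d (6.11% of genes lower and 6.65% higher), with a change of -1.45 ± 0.29 (adjusted p = 0.000741).

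In order of mean CPM, Dhrs3 ran from chronic 72 h (326) over acute 7 d (251), chronic 24 h (233), acute 72 h (155), chronic 14 d (95.5) and healthy (79.4) to acute 24 h (21.8). Of neighbours in this order, healthy and acute 24 h were the 1 pair called. Acute 72 h and chronic 14 d did not overlap either but were not called (adjusted p = 0.0538), the other neighbours overlapped, and 13 of the 21 pairs of groups were called. The sum of portal fibroblast markers moved in a similar order, though not every marker did. The sum of 9 such markers was 151 to 243 CPM in healthy, 82.5 to 140 in acute 24 h, 285 to 806 in acute 72 h, 808 to 1078 in acute 7 d, 588 to 1023 in chronic 24 h, 1135 to 2006 in chronic 72 h and 378 to 760 in chronic 14 d libraries, with no marker at 0 in any group. In acute 24 h 2 of the 9, Eln and Clec3b, were called lower than healthy, where 12.5% of all genes were. The median log2 fold change of the 9 was -0.08 there, against -0.12 over all genes. In acute 72 h and chronic 24 h, 5 and 6 of the 9 were called higher than healthy, and Clec3b was called lower in both. In chronic 14 d 6 of the 9 were called higher (4.55% of all genes), whereas Dhrs3 was not called there. The part of portal fibroblasts in the Dhrs3 result was not tested. Eln, the elastin gene and 1 of those 9 markers, was also the gene whose 6 fold changes against healthy were nearest to those of Dhrs3 among 9954 genes compared (root mean square difference 0.35 on the log2 scale), followed by Tmem98 (0.38) and Csdc2 (0.42).

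**Figure D2:**
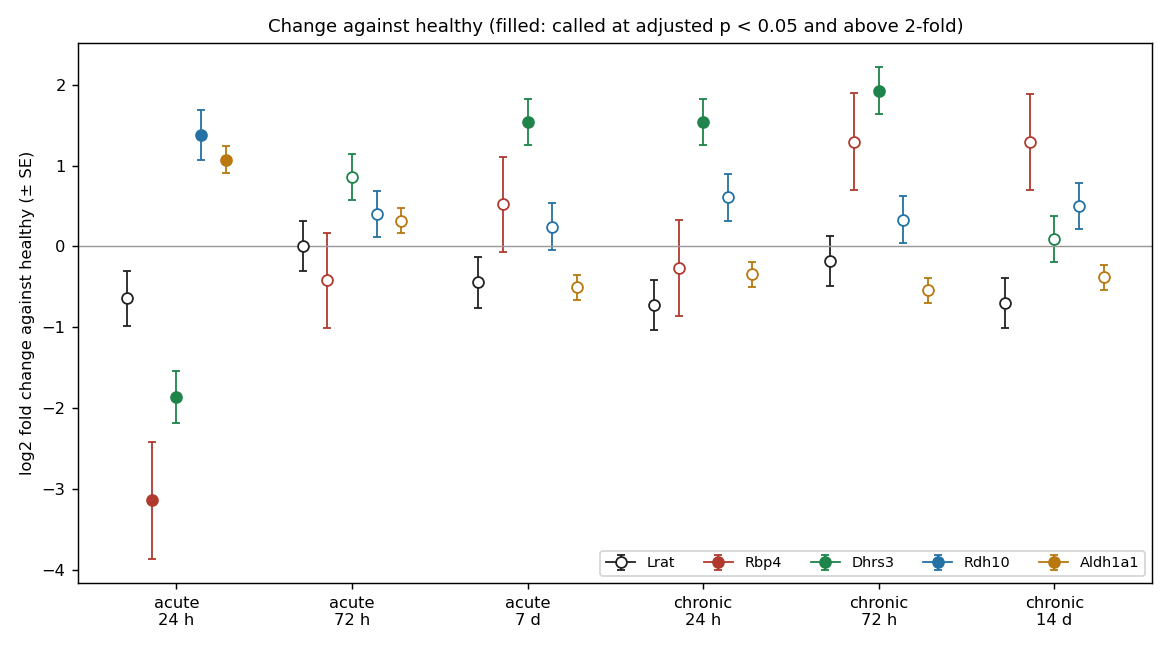
Log2 fold change against healthy (± SE, edgeR) of 5 members in the 6 injured groups. Filled points were called at an adjusted p below 0.05 and more than 2-fold, and Dhrs3 goes from -1.86 in acute 24 h to 1.93 in chronic 72 h while no point of Lrat is filled.

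Rdh10, which oxidises retinol to retinal and so works against Dhrs3 (ENSMUSG00000025921, chr1:16105774-16133734, plus strand), had 39.2, 41.6, 45.5 and 45.7 CPM in the healthy libraries. In acute 24 h it had 49.8, 136 and 147 CPM. The last 2 of these were the highest of all 27 libraries, and replicate 3 lay just above the healthy range. Later values were 43.9, 50.4, 69.5 and 80.9 CPM in acute 72 h, and 50.7, 52.3, 52.6 and 62.7 CPM in acute 7 d. In the chronic groups they were 47.6, 54.1, 78.6 and 83.1 CPM at 24 h, 29, 56.7, 71.7 and 78.1 CPM at 72 h, and 58.4, 64.5, 72.3 and 80.1 CPM at 14 d. Every library of acute 7 d, chronic 24 h and chronic 14 d lay above the healthy ones, without a change past the threshold.

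Rdh10 rose in acute 24 h by 1.38 ± 0.31 on the log2 scale (2.59-fold, adjusted p = 0.00125), and by 1.11 to 1.72 when 1 library was left out in turn. It was lower in acute 7 d than in acute 24 h, by -1.13 ± 0.31 (adjusted p = 0.00508), 1 of 2 members called lower where 9.24% of genes were. That call rested on replicates 1 and 2 of acute 24 h, without which the change was -0.96 and -0.87 (adjusted p = 0.0345 and 0.0509). Chronic 24 h against acute 24 h was -0.77 ± 0.31 (adjusted p = 0.0767), and -1.12 with an adjusted p of 0.00812 without acute 24 h replicate 3. The other 5 injured groups had log2 fold changes of 0.24 to 0.61 against healthy, none of them called. Nfkbib (0.10), Qars (0.14) and Rpl10 (0.15) had the fold changes nearest to those of Rdh10, by root mean square difference.

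Set side by side within a library, Dhrs3 and Rdh10 gave a ratio that does not depend on how libraries are scaled. This ratio was chosen after the values had been seen and was not tested. In counts per kb of merged exons it was 1.24, 2.72, 3.21 and 3.49 in the healthy libraries, and 0.196, 0.232 and 0.645 in acute 24 h, the only group in which Rdh10 was above Dhrs3. It ranged from 3.12 to 4.56 in acute 72 h, from 4.44 to 10.5 in acute 7 d, from 3.89 to 9.10 in chronic 24 h and from 5.16 to 19.5 in chronic 72 h. In chronic 14 d it was 1.57 to 2.87, within the healthy range.

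**Figure D3:**
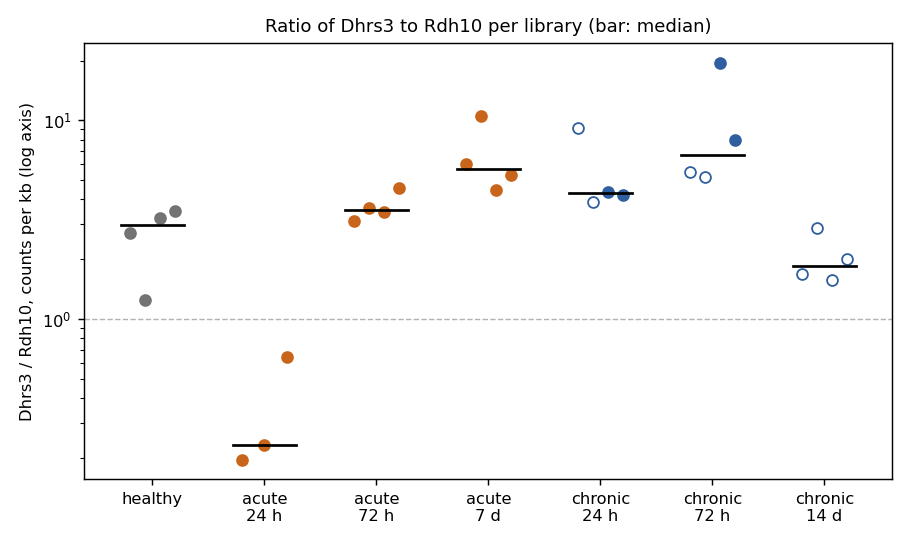
Ratio of Dhrs3 to Rdh10 in counts per kb of merged exons, per library on a log axis, with the median of each group as a bar and a dashed line at 1. Open points are libraries under 9 M counts, and the 3 acute 24 h libraries are the ones below 1 (0.196 to 0.645).

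Among the enzymes that make retinoic acid, Aldh1a1 was higher 24 h after the first injection and Aldh1a2 went from no count to a low level. Aldh1a1 (ENSMUSG00000053279, chr19:20492715-20643465, plus strand) had 101, 108, 122 and 130 CPM in the healthy libraries. It had 214, 240 and 269 CPM in acute 24 h, 108, 164, 168 and 179 CPM in acute 72 h, and 74.6, 78.4, 96.9 and 98.7 CPM in acute 7 d. The acute 24 h libraries lay above all the others, and the acute 7 d libraries below all the healthy ones. The chronic groups had 80.2, 80.6, 90.7 and 114 CPM at 24 h, 81.9, 84.8, 86.2 and 90.2 CPM at 72 h, and 81.7, 96.0, 103 and 118 CPM at 14 d.

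Aldh1a1 rose in acute 24 h by 1.07 ± 0.17 on the log2 scale (2.10-fold, adjusted p = 2.6e-05). The change was 0.99 without acute 24 h replicate 1, with an adjusted p of 0.0004. Against acute 24 h, it was lower in acute 7 d by -1.58 ± 0.17 (adjusted p = 1.9e-07) and lower in chronic 24 h by -1.41 ± 0.17 (adjusted p = 2.1e-06), where it was the 1 member called lower. Against healthy, it was -0.51 ± 0.15 in acute 7 d (adjusted p = 0.0192) and -0.54 ± 0.15 in chronic 72 h (adjusted p = 0.0146), both under 2-fold. Chronic 72 h was lower than acute 72 h by -0.86 ± 0.16 (adjusted p = 0.000523), again under 2-fold. Scarb2 (0.16) and Pfas (0.16) were among the genes nearest to Aldh1a1 in fold changes. Aldh1a1 overlaps C730002L08Rik and the pseudogene Gm6684, with 160 and 32 counts in all libraries against 35459, and the strand used in counting is not given in the sources used here.

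Aldh1a2 (ENSMUSG00000013584, chr9:71215789-71296243, plus strand) had 0 counts in all 4 healthy libraries, where 3 counts per library would be 0.255 CPM on average. It had 3, 3 and 16 counts in acute 24 h, 11, 12, 14 and 20 in acute 72 h, and 0, 9, 11 and 18 in acute 7 d. The chronic 24 h libraries had 27, 31, 34 and 41 counts, or 2.21 to 5.41 CPM, the highest of all groups, and chronic 72 h had 0, 5, 10 and 16. In chronic 14 d 2 libraries had 0 and the others 7 and 11 counts. Groups that hold a library at 0 overlap the healthy one.

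With 0 counts in healthy, Aldh1a2 passed the filter on low counts only through the injured libraries, so that only a rise could be called. Against healthy, it was called higher in all 6 groups, with adjusted p-values of 0.0137 in acute 24 h, 0.00612 in acute 72 h, 0.0126 in acute 7 d, 0.000527 in chronic 24 h, 0.0133 in chronic 72 h and 0.0468 in chronic 14 d. Set against 3 counts in each healthy library, its mean was 14.4-fold higher in chronic 24 h, 4.72-fold in acute 72 h and 2.38-fold in chronic 14 d. These values leave out the spread of the injured libraries, which in chronic 14 d was an SD of 0.737 CPM around a mean of 0.608 CPM. The call in acute 24 h was lost without replicate 1 (adjusted p = 0.088), and that in chronic 14 d without any 1 healthy library, without chronic 14 d replicate 2 or 3, and with the depth class as a term (adjusted p = 0.184). Chronic 24 h against acute 24 h was 2.54 ± 1.14 and not called (adjusted p = 0.12). Mesothelial cells also express Aldh1a2, and the sum of 8 mesothelial markers was 5.88 to 16.8 CPM in healthy, 7.12 to 12.1 in acute 24 h, 19.4 to 28.2 in acute 72 h, 37.6 to 94.3 in acute 7 d, 56.5 to 111 in chronic 24 h, 106 to 154 in chronic 72 h and 47.8 to 107 in chronic 14 d libraries. Of these markers 6 were tested, and Wt1 was called higher than healthy in each of the 6 groups, the 1 marker to be so. Gpm6a was called lower in acute 24 h and Krt19 in acute 72 h. The median log2 fold change of the 6 tested was -2.83 in acute 24 h and -1.87 in acute 72 h. In the other injured groups it was 1.26 to 2.40. Msln and Lrrn4 were at 0 in acute 24 h, Msln, Krt19 and Muc16 in acute 72 h, and Muc16 in chronic 72 h. The part of such cells in the Aldh1a2 counts was not tested. S100a6 (1.10), Clec4e (1.11) and Lcn2 (1.31) were the nearest genes in fold changes, at a distance larger than for the other members.

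Of the carrier and its receptor, Rbp4 fell 24 h after the first injection, and Stra6 was hardly present. Rbp4 (ENSMUSG00000024990, chr19:38116629-38125281, minus strand) had 32.7, 53.8, 60.6 and 246 CPM in the healthy libraries. It had 6.41, 6.85 and 20.4 CPM in acute 24 h, 68.6, 81.1, 84.3 and 87.6 CPM in acute 72 h, and 60.8, 135, 192 and 232 CPM in acute 7 d. The chronic groups had 32.4, 58.2, 99.9 and 144 CPM at 24 h, 198, 225, 285 and 351 CPM at 72 h, and 128, 133, 257 and 564 CPM at 14 d. Acute 24 h lay below every other group, and healthy replicate 4 stood far above the other healthy libraries.

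Rbp4 was lower than healthy in acute 24 h by a log2 fold change of -3.14 ± 0.72 (8.82-fold, adjusted p = 0.00166), and -2.12 without healthy replicate 4. From acute 24 h, it was higher by 2.87 ± 0.71 in chronic 24 h (adjusted p = 0.00547) and by 3.66 ± 0.74 in acute 7 d (adjusted p = 0.000432). Within the libraries over 9 M counts the former was 1.98 and not called (adjusted p = 0.0863). No other group was called against healthy, at values from -0.42 in acute 72 h to 1.30 in chronic 72 h. Leaving out healthy replicate 4 changed this. Chronic 72 h was then higher by 2.32 (adjusted p = 0.00561), chronic 14 d by 2.32 (adjusted p = 0.0104) and acute 7 d by 1.55 (adjusted p = 0.0429), and the values of acute 72 h and chronic 24 h turned to 0.61 and 0.76.

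Hepatocyte markers moved with Rbp4. The sum of 16 markers, among them Alb and Apoa1, was 1260, 1834, 2115 and 7024 CPM in the healthy libraries, the last again in replicate 4, and 679 to 942 CPM in acute 24 h, where 13 of the 16 were called lower. It was 2438 to 5192 CPM in acute 72 h, 4124 to 6956 in acute 7 d, 1427 to 5410 in chronic 24 h, 5128 to 8190 in chronic 72 h and 4517 to 17474 in chronic 14 d. Per 1000 CPM of that sum, Rbp4 was 26.0 to 35.1 in healthy and 9.09, 10.1 and 21.6 in acute 24 h. It was 15.6 to 34.6 in acute 72 h, 14.7 to 44.6 in acute 7 d, 22.7 to 31.6 in chronic 24 h, 30.8 to 47.6 in chronic 72 h and 24.5 to 32.3 in chronic 14 d. The acute 24 h values of Rbp4 lay below the healthy ones, and overlapped those of acute 72 h and acute 7 d. Ttr, another gene of hepatocytes, was also lower per 1000 CPM of that sum. It was 19.1 to 27.3 in healthy and 3.11, 5.05 and 12.0 in acute 24 h, so such a fall was not particular to Rbp4. The genes nearest to Rbp4 in fold changes were Cyp2a12 (0.24), 2810459M11Rik (0.24) and Apof (0.25). How much of the Rbp4 count came from hepatocyte RNA was not tested.

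**Figure D4:**
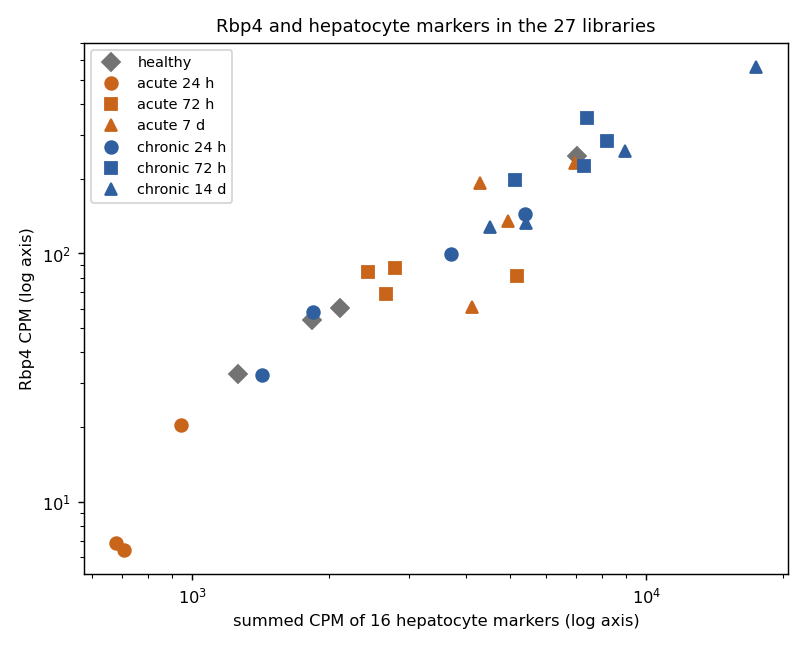
Rbp4 CPM against the summed CPM of 16 hepatocyte markers in the 27 libraries, both on log axes, coloured by injury (healthy grey, acute orange, chronic blue) with a symbol for each time. The 3 acute 24 h libraries lie lowest on both axes, and healthy replicate 4 (246 CPM) lies among the later groups.

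Stra6 had 18 counts in all, in 4 of the 27 libraries, with at most 9 in a library. Crabp1 had 4 counts in 1 library, and Crabp2 had 22 counts in 5 libraries with at most 7. These 3 genes did not pass the filter and were not tested. At this depth a count of 0 allows up to 3 counts in a library, so a low level cannot be told from none. Stra6 had 0 counts in acute 24 h and in all 3 chronic groups.

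The other genes of the pathway comprised 78 names, of which 77 were in the table and 65 were tested. Against healthy, 5 were called higher and 20 lower in acute 24 h (7.69% and 30.8%, against 9.41% and 12.5% of all genes tested). The median log2 fold change of the 65 was -0.79 there, against -0.12 over all genes. In acute 72 h 3 were higher and 1 lower (4.62% and 1.54%, against 8.23% and 4.33%). In acute 7 d these were 8 and 3 (12.3% and 4.62%, against 9.23% and 5.64%). In chronic 24 h they were 8 and 5 (12.3% and 7.69%, against 11.2% and 8.11%), close to the shares of all genes as in acute 7 d. In chronic 72 h they were 10 and 1 (15.4% and 1.54%, against 7.88% and 4.2%). In chronic 14 d they were 7 and 2 (10.8% and 3.08%, against 4.55% and 1.17%). Rdh9 is among the higher genes in acute 72 h, acute 7 d, chronic 24 h and chronic 72 h. With 0 counts in healthy, it could only be called higher. Its call in acute 72 h was lost without any 1 healthy library (adjusted p from 0.0514 to 0.0600), and that in chronic 24 h without its replicate 1 (adjusted p = 0.0528). Many of the 20 are genes of hepatocytes, such as Ttr, the partner of RBP4 in blood (-3.78 ± 0.80), Adh1, an alcohol dehydrogenase (-3.65 ± 0.82), and Aldh8a1 (-4.99 ± 0.87), and they were lower together with the hepatocyte markers above. Without healthy replicate 4 the values were -2.79 for Ttr, -2.66 for Adh1 and -4.04 for Aldh8a1.

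Among the enzymes around retinoic acid, Aldh1a3, another retinal dehydrogenase, rose in acute 24 h by 2.49 ± 0.37 (adjusted p = 2.0e-05) and was called higher in every group but acute 72 h, where it was 0.95 ± 0.35 (adjusted p = 0.0543). The call of Aldh1a3 in chronic 14 d (1.19) was lost without healthy replicate 1 or 2 and without chronic 14 d replicate 1, 3 or 4 (adjusted p from 0.0615 to 0.129). Its mean stayed between 2.66 CPM in healthy and 15.0 CPM in acute 24 h. Cyp1b1, a cytochrome that can also oxidise retinol and retinal, was higher in the same 5 groups, by 2.11 ± 0.45 in acute 24 h (1.14 without replicate 1 of that group) and 3.54 ± 0.45 in acute 7 d. Cyp26a1, which breaks down retinoic acid and is a known target of its receptors, was higher in chronic 72 h (3.92 ± 1.02, adjusted p = 0.00858) and chronic 14 d (4.31 ± 1.03, adjusted p = 0.0102), from 0.250 CPM in healthy to 4.35 and 5.79 CPM. The chronic 14 d value rested on replicate 2, at 17.1 CPM, without which the mean was 2.03 CPM and the change 2.79 and not called (adjusted p = 0.101). Cyp26a1 is also made by hepatocytes, whose markers were high in these groups, and its source was not tested.

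Dhrs9, another short-chain dehydrogenase, was higher in acute 7 d (3.53 ± 0.73) and in all chronic groups (2.27 to 3.32), a call that was lost in chronic 72 h without any of 5 libraries and in chronic 14 d without any of 6. The sum of 12 macrophage markers was 170 to 680 CPM in healthy, 165 to 237 in acute 24 h, 334 to 697 in acute 72 h, 4425 to 10583 in acute 7 d, 547 to 3790 in chronic 24 h, 1121 to 3346 in chronic 72 h and 883 to 2342 in chronic 14 d libraries. Of these markers 10 were called higher than healthy in acute 7 d, 8 in chronic 24 h, 8 in chronic 72 h and 3 in chronic 14 d, and their part in the Dhrs9 result was not tested. Lpl, a lipase that also acts on retinyl esters in lipoproteins, rose in both 24 h groups, by 1.16 ± 0.20 in acute (adjusted p = 0.000116) and 1.66 ± 0.19 in chronic cells (adjusted p = 7.8e-07). Bco1, which cleaves beta-carotene to retinal, was lower in acute 7 d (-1.04 ± 0.17), chronic 72 h (-1.54 ± 0.17) and chronic 14 d (-1.11 ± 0.17), with changes of -0.97 in acute 7 d without healthy replicate 2 and -0.95 in chronic 14 d without its replicate 3, both under 2-fold. Of the retinoic acid receptors, Rara, Rarb and Rarg were not called against healthy in any group, though Rara was -0.82 to -0.91 with adjusted p-values from 0.00409 to 0.0108 in acute 72 h, acute 7 d, chronic 24 h and chronic 72 h. Rxra, their partner, was called lower in chronic 24 h alone (-1.11 ± 0.19, adjusted p = 8.2e-05). Fabp5, a carrier that can bring retinoic acid to another receptor, was higher in acute 7 d, chronic 24 h and chronic 72 h (3.89, 3.34 and 3.21), and by 2.59 in chronic 24 h without its replicate 2. Most of the 12 macrophage markers were called higher in these groups as well, and their part in the Fabp5 result was not tested.

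**Figure D5:**
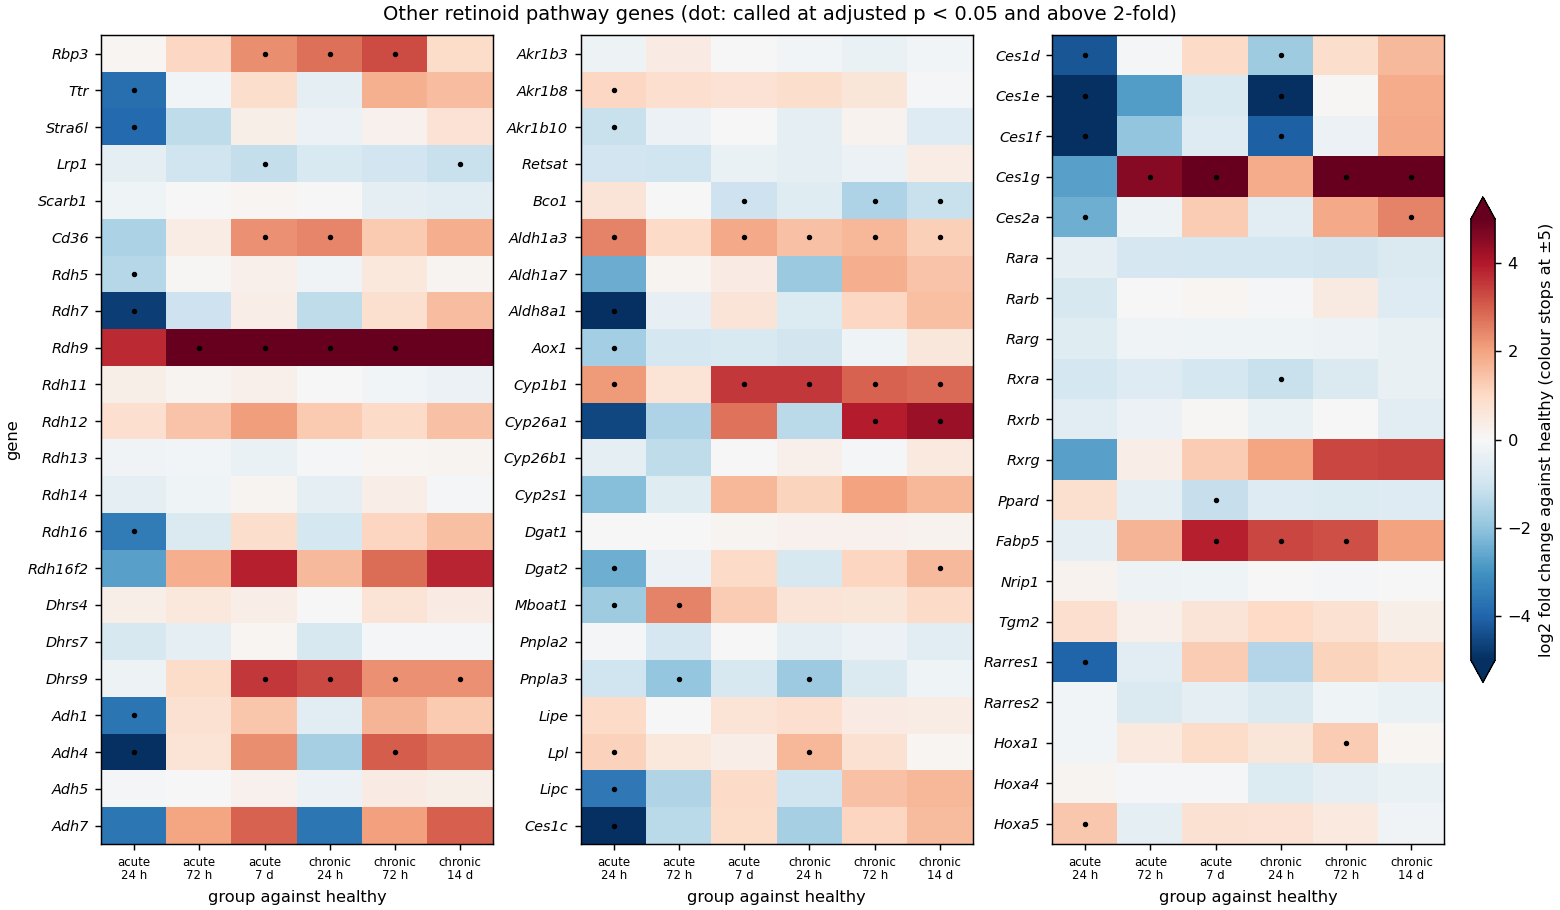
Log2 fold change against healthy of 64 of the 65 other retinoid pathway genes tested (rows, in the order of the list) in the 6 injured groups (columns), with colour from -5 (blue) to 5 (red) and values beyond drawn at the end of the scale. A dot marks a call, and the acute 24 h column holds 19 dots on lower and 5 on higher genes.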

How the data were processed

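RNA was sequenced from 27 libraries of sorted HSCs in 7 groups. Per the labels and the study's methods, single-end reads of 75 bases went through FastQC, STAR on GRCm38.p6 and then StringTie. What the authors deposited is 1 table of raw counts, in whole numbers by Ensembl gene ID, that had not been normalized. Versions of these tools, the strand, the annotation release and the way counts were made from the assembly are not given in the sources used here. The table holds 53379 genes, 16198 of them without a count, and GENCODE M21 gave symbols, positions and exon lengths for 53274. All columns were matched to a sample.

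The edgeR package (4.0.16, in R 4.3.3) was used on these counts. Genes passed filterByExpr by group, TMM factors scaled the libraries, and 1 robust quasi-likelihood fit of all libraries gave 10 comparisons and 1 interaction, with Benjamini-Hochberg adjustment over 18758 genes and a call at an adjusted p below 0.05 and more than 2-fold. The standard error is the log2 fold change divided by the root of F, and intervals are at 95%. Procedures were tested on simulated counts. The 39 pairs of replicates differed beyond sampling noise. Promoter windows are RefSeq's. Genes named were the members, any called gene of the pathway list, and for each member the 3 nearest protein-coding genes (mean log2 CPM 3 or higher) by the 6 fold changes against healthy. Members and lists were chosen with earlier results of these data known. Alternatives were the size factors of DESeq2 1.42.0, library size alone, DESeq2's own test, no filter, a mean of at least 1 CPM, fits of the compared groups only, the replicate number as a block, depth class as a term, libraries of 1 depth class, and each library left out. Figures were drawn with Python 3.11.15 and matplotlib 3.10.9. The study's other data types were not used here. Of the genes that the naming rule gave, 2 are not reported here, and 1 of these is left out of the plot of the pathway genes.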

Additional observations from a re-analysis of the deposited data

Results flagged for a closer look

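Among the 42 groups of 4 libraries examined over the members, 8 had 1 library far from the others. The rule is set so that chance flags about 1 in 20. That rate does not hold where the rest of a group is at 0, as in 5 of the 8, so the number of flags is not set against it. Healthy replicate 4 had 246 CPM of Rbp4, against 32.7 to 60.6 CPM in the other healthy libraries, and was also the healthy library with the most hepatocyte marker RNA. Chronic 14 d replicate 2 had 118 CPM of Dhrs3 against 85.2 to 90.6 CPM. Acute 7 d replicate 4 had 62.7 CPM of Rdh10 against 50.7 to 52.6 CPM. The other 5 are single libraries with a few counts where the rest of the group had 0. These were Stra6 in healthy replicate 2 (0.185 CPM) and acute 72 h replicate 2 (0.440 CPM), Crabp1 in acute 72 h replicate 1 (0.359 CPM), and Crabp2 in acute 7 d replicate 3 (0.311 CPM) and chronic 72 h replicate 3 (0.397 CPM).

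Dhrs3 also differed between the injuries in its step from 24 h to 72 h, by -2.33 on the log2 scale (chronic minus acute, interaction in the edgeR fit, adjusted p = 0.000897). It was the 1 of 6 members tested with a call in that interaction.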

How the results depend on the processing

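The 23 member changes that passed the test kept their direction under all 368 alternatives run on them, and 17 of those alternatives took a change below the threshold. For Aldh1a2 against healthy the direction was set by the 0 counts in every healthy library, so its agreement adds nothing here. The changes that turned sign were among the 43 that had not passed, with sizes up to 0.42 on the log2 scale, and the cause was not tested. For Lrat in acute 72 h against healthy the log2 fold change was -0.033 with DESeq2's size factors, -0.0083 with no filter on low counts, -0.0086 with genes at a mean of 1 CPM or more, -0.0094 with the compared groups alone and -0.038 in DESeq2. With libraries above 9 M counts alone, Lrat was at 0.10 in chronic 72 h against healthy and at 0.11 in chronic 72 h against acute 72 h. Lrat was at 0.043 in chronic 24 h against acute 24 h with a term for depth class, and the chronic minus acute step of Lrat was 0.0018 with no filter. For Rdh10 in chronic 14 d against chronic 24 h the value was 0.063 with library size alone, and for Aldh1a1 it was 0.0241 with DESeq2's size factors, 0.13 with library size alone, 0.037 with the compared groups alone and 0.0236 in DESeq2. Leaving out 1 library in turn gave Lrat -0.24 to 0.25 in acute 72 h against healthy, -0.42 to 0.059 in chronic 72 h against healthy, -0.17 to 0.021 in chronic 24 h against acute 24 h, -0.16 to 0.20 in chronic 14 d against chronic 24 h and -0.22 to 0.13 for the step. Against healthy, it gave Rbp4 -0.71 to 0.61 in acute 72 h and -0.66 to 0.76 in chronic 24 h, and Dhrs3 -0.13 to 0.25 in chronic 14 d. It gave Rdh10 -0.22 to 0.20 in chronic 72 h against acute 72 h and -0.24 to 0.033 in chronic 14 d against chronic 24 h, where Aldh1a1 was at -0.11 to 0.10, and it gave Aldh1a2 -0.33 to 1.495 in acute 7 d against acute 24 h. The number of members called was 1 in acute 7 d and 1 in chronic 72 h, each against healthy, with the compared groups alone, where 2 were called over all libraries. In chronic 14 d against healthy it was 0 in place of 1 with no filter, with a term for depth class, with the compared groups alone and with the replicate block. In chronic 72 h against acute 72 h it was 2 in place of 1 with the compared groups alone and in DESeq2, and in chronic 14 d against chronic 24 h it was 2 with library size alone and 3 in DESeq2 in place of 1. Without 1 library in turn, 3 to 5 members were called in acute 24 h, 1 to 2 in acute 72 h and 0 to 1 in chronic 14 d, each against healthy, 0 to 1 in chronic 72 h against acute 72 h and 1 to 2 in chronic 14 d against chronic 24 h. Per kilobase of the longest transcript, the healthy mean was 12.0 CPM for Rdh10 and 48.8 CPM for Aldh1a1. Scaling by library size alone moved the median change of all genes by up to 0.17 on the log2 scale. Libraries with the same replicate number did not deviate together (mean r of 0.00303 over 78 pairs, against -0.00095 over 234 pairs with different numbers), so the numbers were not taken as pairs. With the replicate block, Aldh1a2 in chronic 14 d against healthy was at 5.79 with an adjusted p of 0.050006 by edgeR's quasi-likelihood test and was no longer called, and no other member's call changed. All 4 chronic 14 d libraries hold under 9 M counts, so depth and group cannot be told apart there, and for members with few counts that depth limits what could be detected.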

Other observations

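Lrat and Dhrs3 had their lowest library in common in 5 of the 7 groups and their highest in common in 4 of 7. Of the 15 pairs of tested members, no other shared the lowest library in more than 4 groups, while Rbp4 and Dhrs3 shared the highest in 5. In healthy replicate 2, for example, Lrat had 781 CPM and Dhrs3 39.9 CPM, the lowest of that group for both. The pattern was noticed after the values had been seen and was not tested, and hepatocyte or other marker sums were not set against it.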
